A study of Mus musculus with 12 samples.

Results

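Transcript levels of 10 genes of blood vessel endothelium and of vessel growth were examined in tibia shafts of mice with a dominant osteogenesis imperfecta allele, with and without loss of sclerostin. The genes were Pecam1, Emcn, Cdh5, Kdr, Flt1, Tek, Eng, Vwf, Vegfa and Angpt2. They were taken by symbol from a table of 47069 genes, and each symbol matched 1 gene. There were 3 groups of 4 male mice, all aged 8 weeks and of mixed FVB/C57BL6 background. WT mice carried normal Col1a1 and Sost genes. Jrt;Sost-het mice carried the Jrt allele of Col1a1 (Col1a1Jrt/+), a splice-site variant that disturbs type I collagen and causes severe dominant osteogenesis imperfecta. Their remaining Sost allele (Sost+/-) is given by the study's methods, whereas the sample labels name only the Col1a1 allele. Jrt;Sost-ko mice carried the same Jrt allele and no functional Sost gene (Sost-/-), which encodes the Wnt inhibitor sclerostin. Both alleles were in the germline, so that endothelial cells carried them as well as bone cells. WT mice came from a parallel colony, and therefore colony and genotype cannot be told apart in comparisons with WT. The marrow was flushed from the shaft before RNA extraction. RNA came from all cells left on and in the bone, so that fewer cells of a type and less RNA per cell cannot be told apart.

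Endothelial cells line every vessel and are held together by adhesion molecules such as VE-cadherin. VEGFA, which is made by osteoblasts, hypertrophic chondrocytes and many other cells, acts on them through the receptor KDR, whereas FLT1 binds VEGFA tightly and limits its supply. Angiopoietins act through the receptor TEK. In bone, capillaries rich in PECAM1 and endomucin lie close to osteoprogenitors, and vessel growth and bone formation are linked during growth and repair.

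Library totals ranged from 24366061 to 44418863 counts per mouse, and levels are given as CPM, that is, counts scaled to the same library total in each mouse. The check of the targeted gene held for the 4 Jrt;Sost-ko mice, which had 0.328 to 1.28 CPM of Sost. Sost had 28.5 to 72.4 CPM in WT and 27.1 to 70.2 CPM in Jrt;Sost-het mice. These ranges overlapped, so that Sost levels cannot show the loss of a single Sost allele in each Jrt;Sost-het mouse. The libraries differed in other tissues. The summed level of 16 skeletal muscle genes ranged from 252 to 32753 CPM in WT, from 2586 to 31287 CPM in Jrt;Sost-het and from 35.9 to 13428 CPM in Jrt;Sost-ko mice, with none of the 16 genes at 0 in any mouse. The summed level of 8 epidermal genes was 146 CPM in WT mouse 3 and 630 CPM in WT mouse 4, and was 15.6 CPM or less in the other 10 mice.

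The promoters of 4 members are shown because these genes stand for the main roles in the set: endothelial surface (Emcn), VEGF receptor (Kdr), co-receptor (Eng) and ligand (Vegfa). The 250 bases before the RefSeq gene start are printed 5′ to 3′ in the direction of the gene (GRCm38.p6). Capitals mark the letters AGGAAG, or CTTCCT where the match is on the other strand, which form an ETS core with its flanks. ETS factors are major regulators of endothelial genes. The windows are chr3:137340828-137341077 (plus strand) for Emcn, chr5:75978456-75978705 (minus strand) for Kdr, chr2:32646345-32646594 (plus strand) for Eng and chr17:46032378-46032627 (minus strand) for Vegfa.
Emcn: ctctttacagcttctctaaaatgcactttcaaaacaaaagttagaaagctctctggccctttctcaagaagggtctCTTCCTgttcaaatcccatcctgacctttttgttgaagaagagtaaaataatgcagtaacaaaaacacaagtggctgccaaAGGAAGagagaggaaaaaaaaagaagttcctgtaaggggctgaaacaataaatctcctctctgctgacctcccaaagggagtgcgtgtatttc
Kdr: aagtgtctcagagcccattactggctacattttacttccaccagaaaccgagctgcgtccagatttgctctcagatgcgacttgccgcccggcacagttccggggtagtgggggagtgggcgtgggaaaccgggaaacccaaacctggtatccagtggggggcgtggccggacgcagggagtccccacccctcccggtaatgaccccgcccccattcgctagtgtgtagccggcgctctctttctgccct
Eng: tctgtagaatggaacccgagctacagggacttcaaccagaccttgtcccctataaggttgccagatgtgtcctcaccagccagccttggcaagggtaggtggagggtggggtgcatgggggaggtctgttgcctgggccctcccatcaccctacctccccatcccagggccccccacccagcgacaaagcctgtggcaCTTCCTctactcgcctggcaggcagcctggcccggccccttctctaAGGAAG
Vegfa: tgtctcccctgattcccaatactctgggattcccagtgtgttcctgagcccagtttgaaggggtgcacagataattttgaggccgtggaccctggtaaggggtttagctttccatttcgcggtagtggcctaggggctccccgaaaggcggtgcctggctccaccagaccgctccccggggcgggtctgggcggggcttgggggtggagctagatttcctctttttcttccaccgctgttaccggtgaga
RefSeq promoters were matched for 6 of the 10 members, namely these 4, Flt1 and Tek. The ETS letters occurred in 3 of the 6 (Emcn, Flt1 and Eng, with 2 matches each), and 29.5% of 32851 promoter windows of the same length held them. The letters ACGTG or CACGT, the core of hypoxia response elements, occurred in 0 of the 6 and in 16.6% of the 32851 windows. These letter counts describe the windows and do not show binding.

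All 10 members were read in every mouse, from 135 counts for the mouse with fewest Angpt2 reads to 8540 counts for the mouse with most Vwf reads. Per kilobase of exon, the order of the mean levels over 12 mice was Eng (18.5 CPM per kb ± 1.46, SD), Pecam1 (17.9 ± 1.63), Vegfa (16.5 ± 4.36), Cdh5 (15.1 ± 2.51), Vwf (11.8 ± 1.53), Kdr (8.39 ± 1.11), Tek (6.50 ± 0.99), Emcn (3.16 ± 0.53), Flt1 (2.90 ± 0.55) and Angpt2 (1.85 ± 0.36). In 12 of 12 mice Kdr lay above Tek, Tek above Emcn and Flt1 above Angpt2. The other neighbours changed places in 1 to 4 mice. The mean levels of Cdh5 and Vwf, and of Vwf and Kdr, differed by more than either SD between mice. Eng and Pecam1, Pecam1 and Vegfa, Vegfa and Cdh5, and Emcn and Flt1 differed by less than the larger of their SDs. Eng, Pecam1, Vegfa and Cdh5 had the highest levels per kilobase, without a fixed order among them.

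**Figure D1:**
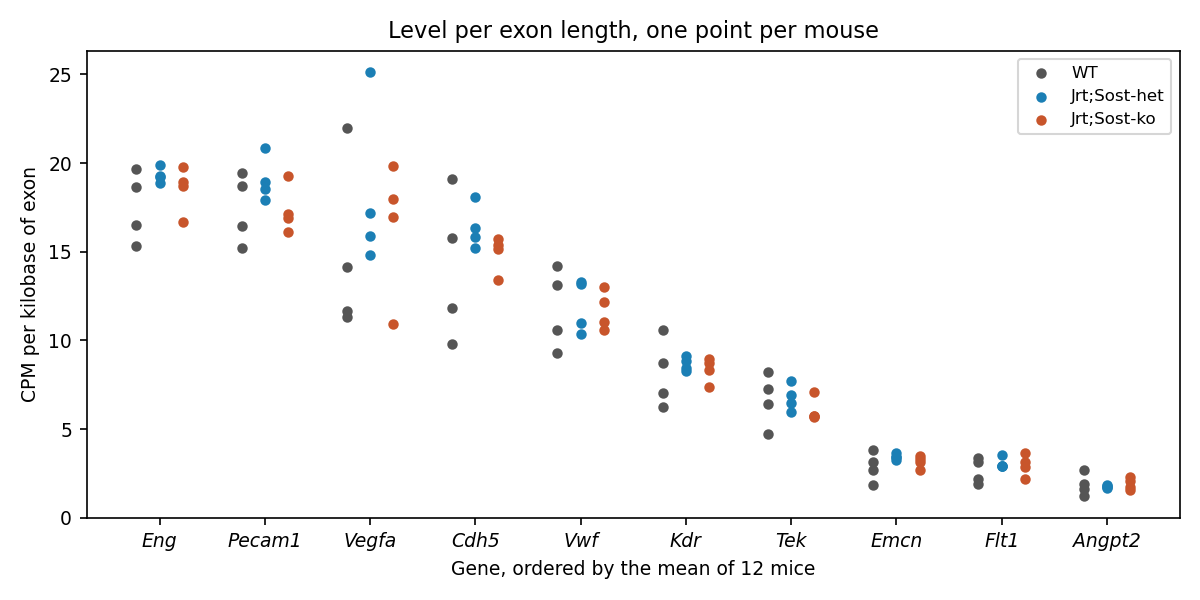
CPM per kilobase of exon (vertical axis) of the 10 genes, ordered by their mean over 12 mice, with 1 point per mouse and colours for the 3 groups. Points of Eng, Pecam1, Vegfa and Cdh5 overlap, and those of Angpt2 lie lowest, with a mean of 1.85 CPM per kb.

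Among the ligands, Vegfa (ENSMUSG00000023951, chr17:46016993-46032369, minus strand), the main growth factor for endothelial cells, had 49.9, 48.4, 60.6 and 94.1 CPM in WT mice 1 to 4, 68.1, 73.6, 63.4 and 108 CPM in Jrt;Sost-het mice 1 to 4 and 85.1, 76.9, 72.7 and 46.9 CPM in Jrt;Sost-ko mice 1 to 4. The highest level was in Jrt;Sost-het mouse 4 and the lowest in Jrt;Sost-ko mouse 4, and all 3 groups overlapped. Group means were 63.2 ± 21.3, 78.2 ± 20.1 and 70.4 ± 16.5 CPM (SD, n = 4). The log2 fold change of Vegfa in Jrt;Sost-ko relative to Jrt;Sost-het mice was -0.15 (SE 0.21, 95% interval -0.63 to 0.34), with an adjusted p of 0.927 in edgeR and an exact permutation p of 0.571. Relative to WT it was 0.30 (SE 0.25, 95% interval -0.27 to 0.87) in the Jrt;Sost-het group and 0.16 (SE 0.26, 95% interval -0.43 to 0.74) in the Jrt;Sost-ko group. These were the widest intervals among the members in each of the 3 comparisons, and they allowed a Vegfa level in Jrt;Sost-het mice between 0.830 and 1.83 times that of WT.

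Angpt2 (ENSMUSG00000031465, chr8:18690263-18741562, minus strand), which encodes an angiopoietin that can block TEK signalling and is released by activated endothelium, was the lowest member. It had 6.06, 4.62, 7.02 and 9.86 CPM in WT, 6.48, 6.15, 6.61 and 6.74 CPM in the Jrt;Sost-het group and 5.87, 8.45, 7.75 and 6.45 CPM in the Jrt;Sost-ko group. WT mice held both the lowest and the highest value, and the Jrt;Sost-het mice lay close together. It was the only member with a higher fitted level in the Jrt;Sost-ko than in the Jrt;Sost-het group, at a log2 fold change of 0.14 (SE 0.14, 95% interval -0.17 to 0.45) and an exact permutation p of 0.400. Angpt2 lies within Mcph1 on the opposite strand, which had up to 1625 counts per mouse. The sources used here do not state whether strand was used in counting. If it was not, reads of parts shared by both genes cannot be assigned with certainty.

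Of the VEGF receptors, Kdr (ENSMUSG00000062960, chr5:75932827-75978458, minus strand), which carries most of the VEGFA signal in endothelial cells, had 63.5, 56.5, 79.0 and 95.4 CPM in WT, 74.5, 82.5, 76.3 and 79.8 CPM in the Jrt;Sost-het group and 79.1, 75.1, 81.0 and 66.5 CPM in the Jrt;Sost-ko group. The WT mice spanned the range of all other mice. Mean Kdr levels were 73.6 ± 17.3, 78.3 ± 3.54 and 75.4 ± 6.40 CPM (SD, n = 4), and the log2 fold change of Jrt;Sost-ko relative to Jrt;Sost-het mice was -0.05 (SE 0.07, 95% interval -0.22 to 0.12). Flt1 (ENSMUSG00000029648, chr5:147561604-147726011, minus strand), the VEGFA-binding receptor that limits KDR signalling, had 29.5, 25.8, 42.3 and 45.9 CPM in WT, 39.3, 39.3, 39.8 and 47.7 CPM in the Jrt;Sost-het group and 49.5, 42.8, 38.6 and 29.9 CPM in the Jrt;Sost-ko group. Jrt;Sost-het mice 1 to 3 were nearly equal, whereas the Jrt;Sost-ko mice covered a wider range on both sides. The log2 fold change of Flt1 was -0.04 (SE 0.15, 95% interval -0.37 to 0.29) between the Jrt;Sost-ko and the Jrt;Sost-het groups, with an exact permutation p of 0.80.

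Tek (ENSMUSG00000006386, chr4:94739289-94874976, plus strand), the angiopoietin receptor TIE2, had 30.2, 22.4, 34.3 and 38.8 CPM in WT, 28.2, 32.7, 30.4 and 36.2 CPM in the Jrt;Sost-het group and 27.0, 27.0, 33.5 and 26.9 CPM in the Jrt;Sost-ko group. Jrt;Sost-ko mice 1, 2 and 4 lay below all Jrt;Sost-het mice, and mouse 3 lay among them. Tek had the lowest fitted log2 fold change of the members between the Jrt;Sost-ko and the Jrt;Sost-het groups, at -0.15 (SE 0.10, 95% interval -0.39 to 0.08), with an adjusted p of 0.901 in edgeR and an exact permutation p of 0.200. This order was not stable, since without Jrt;Sost-ko mouse 1 Pecam1 was at -0.19 and Tek at -0.13. On leaving out single mice, Vegfa went as low as -0.255 and Tek as low as -0.24. Eng (ENSMUSG00000026814, chr2:32646595-32682669, plus strand), endoglin, a co-receptor for ligands of the TGF-beta family on endothelium, had 66.8, 62.1, 75.6 and 79.5 CPM in WT, 80.5, 76.4, 77.8 and 77.9 CPM in the Jrt;Sost-het group and 76.5, 80.0, 75.7 and 67.6 CPM in the Jrt;Sost-ko group. It varied least of the 10 genes, with a highest level only 1.29 times the lowest over 12 mice. The log2 fold change of Eng was -0.06 (SE 0.06, 95% interval -0.20 to 0.08) between the Jrt;Sost-ko and the Jrt;Sost-het groups. Eng overlaps 4 other annotated genes, which had at most 839 counts in a mouse, and reads of the overlapping parts cannot be assigned with certainty.

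At the endothelial surface, Pecam1 (ENSMUSG00000020717, chr11:106654217-106750628, minus strand) encodes CD31, an adhesion molecule that platelets and leukocytes also carry. It had 103, 94.7, 116 and 121 CPM in WT, 111, 115, 118 and 129.9 CPM in the Jrt;Sost-het group and 119.9, 105, 107 and 100.2 CPM in the Jrt;Sost-ko group. Jrt;Sost-ko mice 2 to 4 lay below all Jrt;Sost-het mice, and mouse 1 lay above 3 of them. The log2 fold change was -0.13 (SE 0.07, 95% interval -0.30 to 0.04), with an adjusted p of 0.901 in edgeR and an exact permutation p of 0.114. Emcn (ENSMUSG00000054690, chr3:137341067-137432185, plus strand), endomucin, a sialomucin of capillaries and veins, had 14.7, 9.99, 17.1 and 20.7 CPM in WT, 18.6, 18.5, 17.6 and 19.7 CPM in the Jrt;Sost-het group and 16.9, 18.8, 18.1 and 14.4 CPM in the Jrt;Sost-ko group. WT mouse 2 lay lowest, and the WT range enclosed both other groups. Its log2 fold change in Jrt;Sost-ko relative to Jrt;Sost-het mice was -0.12 (SE 0.10, 95% interval -0.34 to 0.10).

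Cdh5 (ENSMUSG00000031871, chr8:104101625-104144511, plus strand), VE-cadherin, the adhesion molecule of endothelial junctions, had 49.7, 41.3, 66.2 and 80.3 CPM in WT, 66.6, 63.9, 68.6 and 76.1 CPM in the Jrt;Sost-het group and 64.7, 63.8, 66.1 and 56.4 CPM in the Jrt;Sost-ko group. Means were 59.4 ± 17.4, 68.8 ± 5.24 and 62.7 ± 4.32 CPM (SD, n = 4). Between the Jrt;Sost-ko and the Jrt;Sost-het groups the log2 fold change was -0.13 (SE 0.08, 95% interval -0.30 to 0.04), with an adjusted p of 0.901 in edgeR and an exact permutation p of 0.114. The interval allowed a Cdh5 level in Jrt;Sost-ko mice between 0.813 and 1.03 times that of Jrt;Sost-het mice. Vwf (ENSMUSG00000001930, chr6:125546774-125686679, plus strand), the platelet-binding glycoprotein stored by endothelial cells and megakaryocytes, had 211, 228, 170.3 and 149 CPM in WT, 214, 212, 176 and 167 CPM in the Jrt;Sost-het group and 209, 169.9, 177 and 196 CPM in the Jrt;Sost-ko group. Here the order of WT mice was reversed, with WT mouse 2 highest and WT mouse 4 lowest of all 12. Group means of Vwf were 189.6 ± 36.1, 192 ± 24.2 and 188 ± 17.8 CPM (SD, n = 4), and the log2 fold change between the Jrt;Sost-ko and the Jrt;Sost-het groups was -0.03 (SE 0.10, 95% interval -0.26 to 0.20).

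**Figure D2:**
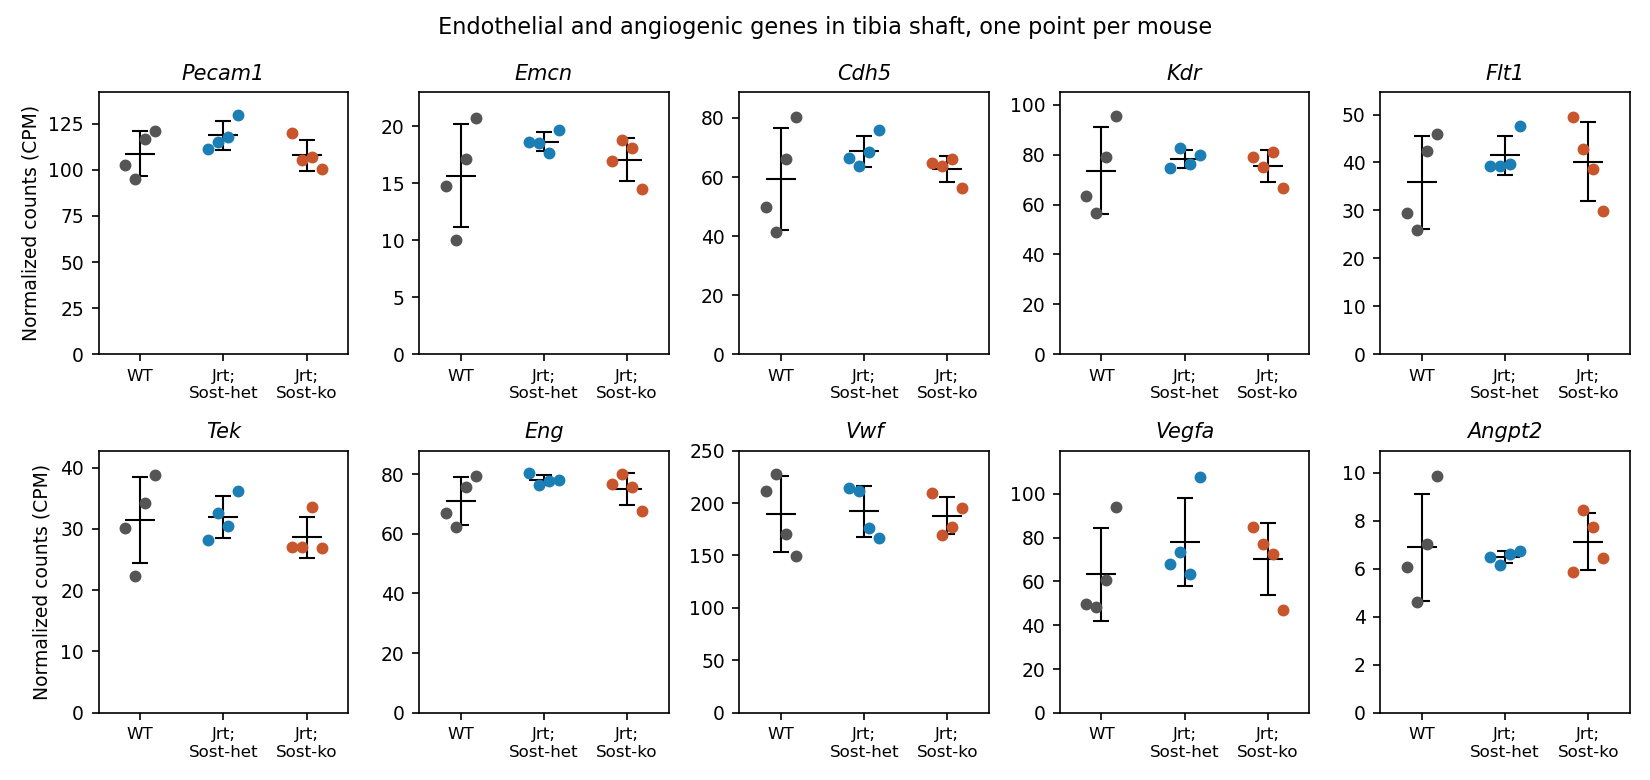
CPM (vertical axes, from 0) of each of the 10 genes in the WT, the Jrt;Sost-het and the Jrt;Sost-ko group, with 1 point per mouse, and a bar and whiskers for the mean and SD of 4 mice. The groups overlap for every gene, and the WT points are the most widely spread, for example 41.3 to 80.3 CPM for Cdh5.

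The comparison of Jrt;Sost-ko with Jrt;Sost-het mice asked what loss of sclerostin changed in the presence of the Jrt allele. By the study's methods the Sost knockout came from C57BL6 mice and the Jrt allele from FVB mice. Sost and Col1a1 are linked on chromosome 11, on which Pecam1 also lies. Strain alleles linked to Sost therefore cannot be told apart from loss of Sost in this comparison. No difference in the endothelial genes was detected. In edgeR, 0 of 10 members passed an adjusted p of 0.05, as 1 of 16739 genes tested did (0.00597%), and that gene was Sost, at a log2 fold change of -5.87 (SE 0.49). None had an unadjusted p under 0.05, which 5.02% of all genes tested had, and no member was without overlap between the groups, as 3.05% of all genes were (1.64% higher and 1.41% lower). DESeq2 and limma-voom also called 0 of the 10. The fitted log2 fold change was below 0 for 9 members and above 0 for Angpt2, with a median of -0.09 beside 0.0013 over all genes tested. Without Jrt;Sost-ko mouse 4 the median was -0.03, with 4 members above 0. The smallest adjusted p among the members was 0.901, and exact permutation p-values ran from 0.114 to 0.80, where the smallest that 4 against 4 mice can give is 0.0286. The 95% intervals of the 10 members together covered levels in Jrt;Sost-ko mice from 0.646 to 1.36 times those in Jrt;Sost-het mice.

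Jrt;Sost-het mice were compared with WT to ask what the Jrt allele, in mice with 1 Sost allele, went along with. In edgeR, 0 of 10 members and 0 of 16775 genes tested (0.0%) passed an adjusted p of 0.05, and DESeq2 and limma-voom called 0 members. An unadjusted p under 0.05 was reached by 0 members and 2.14% of all genes, and non-overlap by 0 members and 1.5% of all genes (0.799% higher and 0.703% lower). The fitted values were higher in Jrt;Sost-het mice for 9 members and lower for Angpt2 (-0.09). The median was 0.13, beside 0.0036 over all genes, and individual values were 0.30 for Vegfa, 0.25 for Emcn, 0.21 for Cdh5, 0.21 for Flt1, 0.14 for Eng, 0.12 for Pecam1, 0.09 for Kdr, 0.02 for Vwf and 0.02 for Tek. Exact permutation p-values ran from 0.171 for Eng to 0.857 for Tek and Vwf. Without WT mouse 2 the median was 0.08 with 7 members higher, and without WT mouse 4 it was 0.21 with 9 higher. The fit was repeated without WT mice 3 and 4, the libraries that held epidermal RNA. These were also the WT mice with most muscle RNA, at 13569 and 32753 CPM, against 2828 and 252 CPM in WT mice 1 and 2. The part of muscle RNA in the values of this fit was not tested. In it, 9 members were higher, with a median of 0.34, Vwf was lower (-0.18) and Angpt2 was higher (0.29), and 7 reached an unadjusted p under 0.05, a level that 19.8% of all genes reached. Cdh5 then stood at 0.60 (SE 0.10), Emcn at 0.60, Flt1 at 0.59, Vegfa at 0.68 and Kdr at 0.39, but the smallest adjusted p in edgeR was 0.114 and no member was called. In this smaller set WT is represented by the 2 mice with the lowest levels of Cdh5, Kdr and Flt1.

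Jrt;Sost-ko mice were also set beside WT mice, the same 4 controls as in the previous comparison. In edgeR, 0 of 10 members passed an adjusted p of 0.05, beside 1 of 17155 genes (0.00583%), which was Sost, and DESeq2 and limma-voom called 0 members. No member had an unadjusted p under 0.05 (3.89% of all genes) or groups without overlap (2.36% of all genes, 1.32% higher and 1.04% lower). Fitted values were above 0 for 7 and below 0 for 3 members, with a median of 0.07 beside -0.0030 over all genes. They ranged from -0.13 for Tek to 0.17 for Flt1, with 0.16 for Vegfa, 0.13 for Emcn, 0.08 for Cdh5, 0.08 for Eng, 0.05 for Angpt2, 0.04 for Kdr, -0.01 for Pecam1 and -0.01 for Vwf. Exact permutation p-values were 0.343 or higher. Without WT mouse 2, the median was -0.05 and 4 members were higher, and without WT mouse 4 it was 0.22 with 8 higher. Without WT mice 3 and 4, which left the WT mice with less muscle RNA, 9 members were higher with a median of 0.37, 5 had an unadjusted p under 0.05 (12.7% of all genes), and the smallest adjusted p in edgeR was 0.304.

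**Figure D3:**
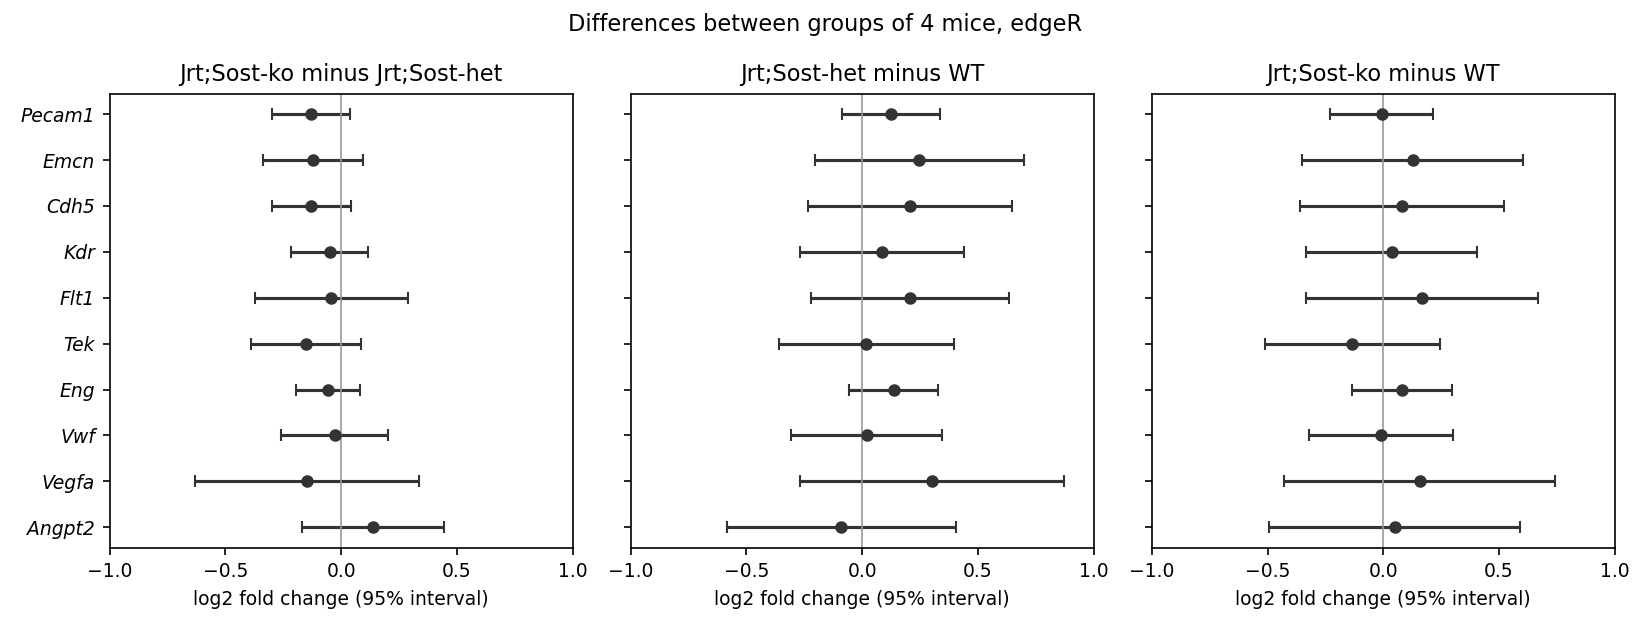
Log2 fold changes (horizontal axes) of the 10 genes in 3 comparisons of 4 against 4 mice, with points for the edgeR estimate and bars for its 95% interval. Every interval includes 0, and in the comparison of Jrt;Sost-ko with Jrt;Sost-het mice only Angpt2 has an estimate above 0, at 0.14.

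The members differed more between WT mice than between groups. The coefficient of variation was largest in WT for 10 of 10 members, with a median of 25.3% in WT, 7.15% in the Jrt;Sost-het group and 10.3% in the Jrt;Sost-ko group. WT mouse 2 had the lowest level of all 12 mice for 8 members and the highest for Vwf. WT mouse 4 had the highest level for 5 members and the lowest for Vwf. Jrt;Sost-ko mouse 4 was among the 2 lowest mice for 4 members and Jrt;Sost-het mouse 4 among the 2 highest for 6. The spread was not compared between groups by a test.

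Levels of the members varied together over mice, with Vwf apart. Of the 36 pairs among the other 9 members, 36 had a positive Pearson's r of log2 CPM over 12 mice, from 0.39 to 0.94 with a median of 0.79. The closest pairs were Emcn with Cdh5 (0.94) and Emcn with Eng (0.94). All 9 pairs with Vwf were negative, from -0.86 to -0.53. After group means were removed the 36 pairs still ran from 0.54 to 0.94 and the 9 pairs from -0.87 to -0.63. All pairs share the same libraries and scaling, and they are given as a description without a test.

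**Figure D4:**
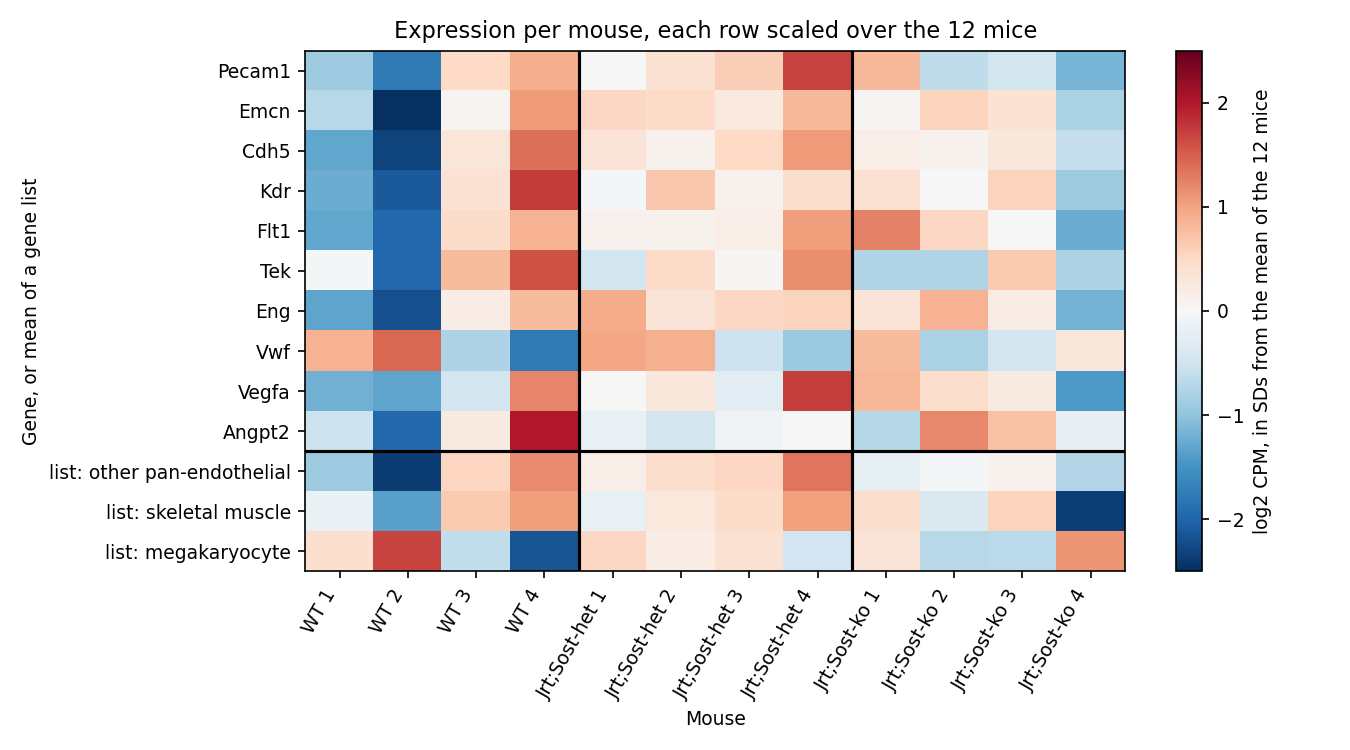
Log2 CPM in each of 12 mice (columns), each row scaled to SDs from its mean, for the 10 genes and for the mean of 3 gene lists (other pan-endothelial, skeletal muscle and megakaryocyte genes). WT mouse 2 is low and WT mouse 4 high in most rows, and the rows of Vwf and of the megakaryocyte list are reversed.

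The members were next set against the mean log2 CPM of gene lists over the 12 mice, in 31 relations, 10 of them with the megakaryocyte list, and permutation p-values were adjusted over the 31. Those 10 were chosen after the values had been seen, and their p-values enter the adjusted p of the other relations. Against 16 other pan-endothelial genes, among them the junction gene Cldn5 and the transcription factor genes Erg and Sox18, Cdh5 had an r of 0.967 (rho 0.909, permutation p 2e-05, adjusted p 0.00062). It was 0.923 without the 2 mice farthest from the median. Emcn (r 0.937), Kdr (0.899), Pecam1 (0.885), Tek (0.869), Eng (0.859), Flt1 (0.838), Vegfa (0.774) and Angpt2 (0.70) were also positive. Vwf was at -0.735 (rho -0.671, permutation p 0.00443, adjusted p 0.0069). The rho of Eng was 0.573 (permutation p 0.056, adjusted p 0.0695) and that of Vegfa 0.608 (permutation p 0.0394, adjusted p 0.0534). Neither rho passed after adjustment. Within WT, r of the 9 positive members with this list was 0.849 or higher. It was -0.344 for Eng and 0.434 for Kdr in the Jrt;Sost-het group and 0.326 for Pecam1 in the Jrt;Sost-ko group. The summed level of the pan-endothelial list was 305 to 452 CPM in WT, 396 to 449 CPM in the Jrt;Sost-het group and 371 to 404 CPM in the Jrt;Sost-ko group.

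Several members also varied with skeletal muscle genes. Muscle has its own capillaries, but their part in these relations was not tested. All relations with gene lists share the same libraries and scaling. Pecam1 had an r of 0.82 with the 16 muscle genes (rho 0.846, permutation p 0.00057, adjusted p 0.00177, 0.791 without the 2 farthest mice). Tek had an r of 0.767 (rho 0.909, permutation p 0.00289, adjusted p 0.00597) and Cdh5 one of 0.719 (rho 0.811, permutation p 0.0141, adjusted p 0.0175). Kdr had an r of 0.766 (rho 0.783, permutation p 0.00445, adjusted p 0.0069), which was 0.717 without the 2 farthest mice. Flt1 had an r of 0.777 (permutation p 0.00416, adjusted p 0.0069) and Vegfa one of 0.763 (permutation p 0.00238, adjusted p 0.00527). Without the 2 farthest mice these were 0.553 and 0.585, and their rho of 0.601 and 0.622 did not pass (adjusted permutation p 0.055 and 0.0514). Without the same mice, WT mouse 2 and Jrt;Sost-ko mouse 4, r went from 0.705 to 0.459 for Emcn and from 0.689 to 0.198 for Eng, so that these relations rest on those mice. The rho of Eng was 0.294 (permutation p 0.353). Angpt2 did not pass (r 0.461, permutation p 0.135, adjusted p 0.135, rho 0.545). Vwf was at -0.537 (rho -0.657, permutation p 0.0692, adjusted p 0.0715). The other pan-endothelial list itself had an r of 0.761 with the muscle list (rho 0.818, permutation p 0.00629, adjusted p 0.00929). Within groups of 4, r of Cdh5 with muscle was 0.972 in WT, 0.815 in the Jrt;Sost-het group and 0.986 in the Jrt;Sost-ko group. In the Jrt;Sost-het group it was -0.509 for Eng, 0.476 for Kdr and 0.477 for Emcn, and in the Jrt;Sost-ko group 0.17 for Angpt2. With the muscle list as a covariate, the median log2 fold change of the members was -0.03 for the Jrt;Sost-ko against the Jrt;Sost-het group (4 higher, 6 lower), 0.11 for Jrt;Sost-het against WT and 0.16 for Jrt;Sost-ko against WT, and edgeR called 0 members in each.

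Vwf was also set beside genes of blood cells. These relations were chosen after the values had been seen, and they are given as a description without a test. Over 12 mice the r of Vwf with 9 megakaryocyte genes, such as Itga2b and Gp1ba, was 0.858 (rho 0.783), and it was 0.707 without WT mice 2 and 4. Within groups it was 0.976 in WT, 0.664 in the Jrt;Sost-het group and 0.766 in the Jrt;Sost-ko group. The r of Vwf was 0.71 with the 8 erythroid genes and 0.589 with the 6 leukocyte genes, so that Vwf varied with all 3 blood lists. Within groups the erythroid values were 0.938 in WT, 0.969 in the Jrt;Sost-het group and -0.0030 in the Jrt;Sost-ko group, and the leukocyte values were 0.914, -0.277 and 0.42. The other 9 members had negative values with the megakaryocyte list, from -0.91 for Angpt2 (-0.718 without WT mice 2 and 4) to -0.584 for Pecam1 (-0.302 without them). The summed level of the megakaryocyte list was 760 to 1584 CPM in WT, 1041 to 1245 CPM in the Jrt;Sost-het group and 984 to 1452 CPM in the Jrt;Sost-ko group, with none of the 9 genes at 0. WT mouse 2 had the highest and WT mouse 4 the lowest sum. The part of megakaryocyte or other blood cell RNA in the level of Vwf was not tested.

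**Figure D5:**
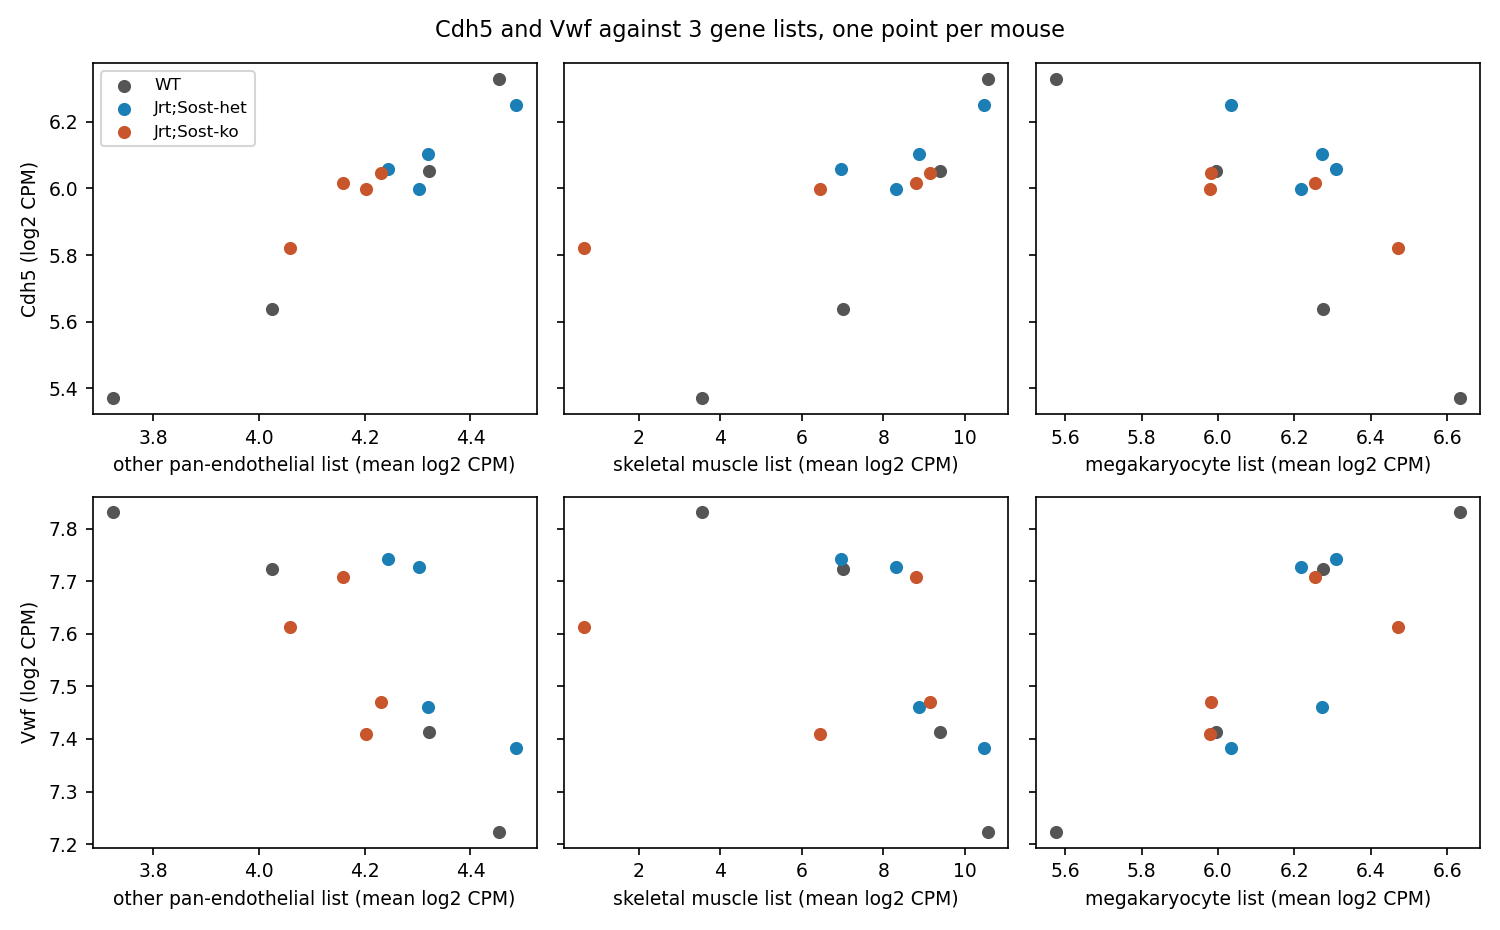
Log2 CPM of Cdh5 (upper panels) and Vwf (lower panels) against the mean log2 CPM of 3 gene lists (horizontal axes), with 1 point per mouse and colours for the 3 groups. Cdh5 increases with the other pan-endothelial genes (r 0.967), and Vwf is high where the megakaryocyte genes are high (r 0.858).

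Among 14667 genes with a mean of at least 1 CPM, members left out, those most like Cdh5 over the 12 mice were Hoxa10 (r 0.97), She (0.97), Lmo7 (0.97), Sorbs3 (0.96) and Ttc19 (0.96). Those most like Vegfa were Tmem117 (0.94), Actr3b (0.93), Spag9 (0.93), Rhoq (0.93) and Msrb3 (0.93). The 15 vessel subtype genes had a median r of 0.80 with Cdh5 and 0.69 with Vegfa, and the 12 hypoxia response genes had medians of 0.47 and 0.51. For the 16 skeletal muscle genes the medians were 0.70 and 0.76, for the 10 mural cell genes 0.80 and 0.74, and for the 16 other pan-endothelial genes 0.81 and 0.61. The muscle median was the highest of the lists for Vegfa. For the megakaryocyte genes the medians were -0.76 and -0.72, for the erythroid genes -0.76 and -0.72 and for the leukocyte genes -0.71 and -0.66. They were 0.63 and 0.55 for the bone genes and 0.71 and 0.54 for the VEGF and angiopoietin pathway. Lymphatic genes had medians of 0.40 and 0.32, and epidermal genes of 0.45 and 0.23. Over all 14667 genes the median was -0.04 for Cdh5 and -0.02 for Vegfa.

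Other genes of the VEGF and angiopoietin pathway gave 0 calls of 14 in each comparison in edgeR, DESeq2 and limma-voom, and 1, 0 and 1 of them had an unadjusted p under 0.05, beside 5.02%, 2.14% and 3.89% of all genes tested. These were Tie1, also on the pan-endothelial list, between the Jrt groups and Shb in Jrt;Sost-ko relative to WT. The pathway list holds the ligands Vegfb, Vegfc, Vegfd, Pgf, Angpt1 and Angpt4, the receptors Flt4, Nrp1, Nrp2 and Tie1, and signalling genes such as Ptprb, Shb, Plcg1 and Nos3. Fitted values were higher for 5 and lower for 9 in Jrt;Sost-ko relative to Jrt;Sost-het mice (median -0.07), higher for 10 in Jrt;Sost-het relative to WT (median 0.13) and higher for 9 in Jrt;Sost-ko relative to WT (median 0.06). Vegfc, a ligand of the lymphatic receptor FLT4, was the 1 gene of the list without overlap between Jrt;Sost-ko (14.4 ± 1.11 CPM, SD, n = 4) and Jrt;Sost-het mice (11.8 ± 1.94 CPM), at a log2 fold change of 0.29 (SE 0.13) and an adjusted p of 0.901 in edgeR, where 3.05% of all genes tested were without overlap (1.64% higher). Angpt4 was at -0.38 and Nos3, the endothelial nitric oxide synthase, at -0.33 in that comparison, and Nos3 was at 0.45 in Jrt;Sost-het relative to WT. Shb, an adaptor of KDR, was without overlap between Jrt;Sost-ko (8.28 ± 0.79 CPM) and WT (6.27 ± 0.73 CPM), at 0.40 (SE 0.12) and an adjusted p of 0.9996 in edgeR, where 2.36% of all genes tested were without overlap (1.32% higher).

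Further vessel genes were examined in the same way. Of the 16 other pan-endothelial genes, 0 were called in any comparison by edgeR, DESeq2 or limma-voom, and 4 (Ramp2, Egfl7, Tie1 and Esam) had an unadjusted p under 0.05 in Jrt;Sost-ko relative to Jrt;Sost-het mice, as did 5.02% of all genes tested. Ramp2, the adrenomedullin co-receptor, had 8.18, 9.38, 10.8 and 8.49 CPM in Jrt;Sost-ko and 10.99, 14.6, 12.2 and 15.2 CPM in Jrt;Sost-het mice, which did not overlap, as 3.05% of all genes tested did not. Its log2 fold change was -0.52 (SE 0.14), with an adjusted p of 0.901 in edgeR, and WT mice lay on both sides at 9.80, 5.30, 12.6 and 13.6 CPM. Fitted values of the list were lower for 14 of 16 (median -0.14) in that comparison, higher for 15 (median 0.18) in Jrt;Sost-het relative to WT and higher for 10 (median 0.0072) in Jrt;Sost-ko relative to WT. Fitted values of the muscle list between the Jrt groups were also lower, for 16 of 16 genes (median -0.99), of which edgeR called 0. These genes varied together over mice, so that they are not 16 separate observations. Their SEs were wide, with Mb at -1.52 (SE 1.21) and Mylpf at -0.78 (SE 1.06). Summed muscle levels overlapped, at 2586, 6810, 10864 and 31287 CPM in Jrt;Sost-het mice 1 to 4. They were 10097, 2305, 13428 and 35.9 CPM in Jrt;Sost-ko mice 1 to 4. With the muscle list as a covariate the pan-endothelial list was lower for 14 of 16 with a median of -0.06 in that comparison, 3 of its genes had an unadjusted p under 0.05 and edgeR called 0. In the comparisons with WT it was then higher for 13 genes in each, with medians of 0.11 for the Jrt;Sost-het and 0.08 for the Jrt;Sost-ko group, and edgeR again called 0.

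Vessel subtype genes, which mark arterial, venous, tip-cell and sinusoidal endothelium, had medians of -0.05, 0.14 and 0.0063 over 15 genes in the same order. In the first of these Gja4, an arterial connexin gene, was at -0.41, the transcription factor gene Sox17, also on the pan-endothelial list, at -0.39 and Efnb2, an arterial ephrin gene, at -0.30, with SEs of 0.23, 0.23 and 0.20. Of the other arterial genes of the list, Hey1 was at 0.21, Gja5 at -0.03 and Dll4 at -0.01. Sema3g, an arterial semaphorin, was lower without overlap in the Jrt;Sost-ko than in the Jrt;Sost-het group (-0.28, SE 0.11), as 1.41% of all genes tested were, but its adjusted p was 0.901 in edgeR. The 12 hypoxia response genes had medians of -0.01, 0.02 and 0.0097, with Bnip3, a mitophagy gene, at -0.44 between the Jrt groups. Hif1a, the hypoxia-inducible transcription factor, was at 0.27 (SE 0.11) in Jrt;Sost-ko relative to WT, with an unadjusted p of 0.0382. In that comparison 7 of the 12 hypoxia response genes were higher and 5 lower, among them Egln3 at -0.43 (SE 0.20) and Bnip3 at -0.29 (SE 0.29). Mural cell genes, which mark pericytes and vascular smooth muscle, had medians of -0.28, 0.22 and -0.01 over 10 genes, with 3 higher and 7 lower in Jrt;Sost-ko relative to Jrt;Sost-het mice. Acta2 was at -0.48 (SE 0.38), Myh11 at -0.46 (SE 0.51) and Abcc9 at 0.06 (SE 0.14) in that comparison. Of 4 lymphatic genes, Ccl21a was listed at 0 in all mice and the other 3 had medians of -0.41, 0.07 and -0.13. Over these 4 lists, 0 genes were called in any comparison by edgeR, DESeq2 or limma-voom. An unadjusted p under 0.05 in edgeR was reached by 1 vessel subtype gene (Sema3g) and 1 mural cell gene (Kcnj8) in Jrt;Sost-ko relative to Jrt;Sost-het mice, and by 1 hypoxia response gene (Hif1a) in each comparison with WT, beside 5.02% of all genes tested in the first comparison and 2.14% and 3.89% in those with WT.

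Genes of other cell types gave 0 calls in edgeR as well, while DESeq2 called the bone gene Bglap in Jrt;Sost-ko relative to Jrt;Sost-het mice and limma-voom called none of them. The 16 skeletal muscle genes, which varied together, had a median log2 fold change of -0.99 in Jrt;Sost-ko relative to Jrt;Sost-het mice (16 of 16 lower). It was 0.08 in Jrt;Sost-het relative to WT and -0.93 in Jrt;Sost-ko relative to WT. SEs were wide, for example 1.32, 1.23 and 1.64 for Atp2a1 in these 3 comparisons. The highest summed muscle level was 32753 CPM in WT mouse 4, then 31287 CPM in Jrt;Sost-het mouse 4. How far the medians rest on single mice was not tested. In the same order the medians were -0.03, 0.03 and 0.02 for 9 megakaryocyte genes, -0.00082, -0.02 and -0.03 for 6 leukocyte genes, 0.10, -0.19 and -0.06 for 8 erythroid genes and -0.18, -5.19 and -5.16 for the 3 epidermal genes that could be tested. The 8 bone genes had medians of 0.40, 0.18 and 0.64, and Mepe, an osteocyte gene, was at 0.70 between the Jrt groups. An unadjusted p under 0.05 was reached by 2, 2 and 3 epidermal genes and by 2, 0 and 2 bone genes, beside 5.02%, 2.14% and 3.89% of all genes tested, and by none of the muscle, megakaryocyte, leukocyte or erythroid genes. The part of these tissues in the members' values was not tested beyond the muscle covariate and the fits without WT mice 3 and 4.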

How the data were processed

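RNA was sequenced from tibia shafts of 12 male mice, 4 in each of 3 genotype groups. Reads were mapped by the authors with STAR (build GRCm38), and raw counts per gene were deposited. Their processing notes also name bcl2fastq 2.20, Cufflinks, Cuffdiff and DESeq. How the counts were made is not given in the sources used here. The deposited count table was used as it stands; the authors' own comparison tables hold fold changes and p-values and were not used. Of 47069 genes, 46574 (98.9%) were matched by ID to the GRCm38 annotation GENCODE M21, which gave positions and exon lengths.

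Counts were scaled by TMM, and log2 CPM used a prior count of 2. Each comparison was fitted on its 8 mice in edgeR 4.0.16 (R 4.3.3) with the quasi-likelihood test after filterByExpr, with Benjamini-Hochberg adjustment over all genes tested and a threshold of 0.05. Two-sided exact permutation tests over mice (scipy 1.17.1) stand beside single genes, and relations over 12 mice used 100000 permutations. The edgeR test was also run on simulated data, and no result reported here rests on that run. DESeq2 1.42.0 and limma 3.58.1 were alternatives, as were DESeq2 size factors, other filters, a fit of all 12 mice, a muscle covariate and leaving out mice. The labels name no batch. They mention SMARTER and NEBNext library kits for all samples, so that which kit was used is unclear. Each sample was 1 mouse by its label, and replicate counts differed by more than sampling noise.

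The members and lists were chosen with earlier results of these data known. All 10 members were named in each comparison. By the rule, list genes with an adjusted p under 0.05 (none) and up to 3 genes of each list with the highest absolute log2 fold change could be named, besides the 5 genes most like Cdh5 and the 5 most like Vegfa. Other list genes, such as those without overlap or with a low unadjusted p, were named after their values were seen.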

Additional observations from a re-analysis of the deposited data

Results flagged for a closer look

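Each member was examined in each group of 4 mice for a mouse standing apart, by the gap of the extreme mouse to its nearest neighbour as a share of the range of the group. This share passed the limit of 0.829 in 2 of 30 cases, where chance gives about 1 in 20, or 1.5. For Flt1 it was 0.937 in Jrt;Sost-het mice, where mouse 4 had 47.7 CPM and the other 3 had 39.3 to 39.8 CPM. For Tek it was 0.984 in Jrt;Sost-ko mice, where mouse 3 had 33.5 CPM and the other 3 had 26.9 to 27.0 CPM.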

How the results depend on the processing

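Of 470 member values under alternatives, 425 kept their direction and none passed the threshold. Signs changed for 45 values, 32 of them on leaving out 1 mouse. Between both Jrt groups, the muscle covariate gave Kdr 0.0237, Flt1 0.11 and Vegfa 0.0879, and limma-voom gave Flt1 0.077 and Vegfa 0.0162. Leaving out single mice gave ranges of -0.0877 to 0.00115 for Kdr, -0.162 to 0.0705 for Flt1, -0.0894 to 0.0231 for Vwf and -0.255 to 0.0481 for Vegfa. The sign held for the other members, with ranges of -0.24 to -0.0843 for Tek, -0.19 to -0.084 for Pecam1 and -0.169 to -0.0532 for Emcn. They were -0.162 to -0.0755 for Cdh5, -0.0879 to -0.014 for Eng and 0.0486 to 0.217 for Angpt2. For Jrt;Sost-het against WT, the muscle covariate gave Tek -0.0673, and leaving out WT mice 3 and 4 gave Vwf -0.183 and Angpt2 0.289. Single mice gave -0.0187 to 0.231 for Kdr, -0.11 to 0.13 for Tek, -0.0863 to 0.119 for Vwf and -0.235 to 0.129 for Angpt2. For Jrt;Sost-ko against WT, limma-voom gave Pecam1 0.0296 and Vwf 0.0137, the muscle covariate gave Pecam1 0.0451, and leaving out WT mice 3 and 4 gave Pecam1 0.131 and Tek 0.123. Single mice gave -0.0683 to 0.047 for Pecam1, -0.0363 to 0.292 for Emcn, -0.0593 to 0.26 for Cdh5, -0.0715 to 0.185 for Kdr, -0.111 to 0.0887 for Vwf and -0.099 to 0.274 for Angpt2. Genes called over the whole table between both Jrt groups were 1 in the reported fit, 15 in DESeq2, 0 in limma-voom, 0 with the muscle covariate and 0 to 3 without single mice. Against WT they were 1 for Jrt;Sost-ko mice, 14 in DESeq2, 2 without a filter, 2 in limma-voom and 0 to 2 without single mice, and 0 to 0 for Jrt;Sost-het mice. The cause of these changes was not tested. No paired analysis was possible because the labels number mice individually and share no number between groups. With 4 mice per group, a value that misses the threshold does not show equal levels.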
